A study of Mus musculus with 8 samples.

Results

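The genes described are 9 transcription factors that set up cartilage, bone, tendon and mesenchyme: Sox9, Sox5, Sox6, Runx1, Runx2, Sp7, Scx, Foxc1 and Foxc2. They were chosen by name, but with earlier results of these data known, so counts of members set beside all loci are only descriptions. Each matched 1 of the 55223 gene loci in the deposited table of transcript levels. The series asks what a short pulse of bone morphogenetic protein (BMP) does to the transcripts of cultured muscle stem cells, the cells that repair skeletal muscle fibres. The cells came from wildtype (C57BL/6J) female mice, 6 to 8 weeks old, and all cultures were expanded on Matrigel for 2 days, then held for 6 h in serum-free medium with 200 ng/ml of BMPR-IA/ALK3-Fc, a soluble receptor that binds BMPs. The 8 libraries form 4 groups of 2. The BMP4 group received 100 ng/ml BMP4 for 1 h, and its control, vehicle_a, received 4 mM HCl with 0.1% BSA for the same time. The BMP6 group received 100 ng/ml BMP6 for 1 h, and its control, vehicle_b, received the same vehicle. Cell isolations 48 and 54 each gave 1 BMP4 and 1 vehicle_a library, and isolations 75 and 77 each gave 1 BMP6 and 1 vehicle_b library. The labels do not say how many mice went into an isolation, so the p-values below speak only of the spread among these libraries, part of which may be technical.

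BMPs bind pairs of receptor kinases at the cell surface, which phosphorylate SMAD proteins that enter the nucleus and switch genes on or off. The ligands were named for the bone that they induce when placed in muscle. Sox9 is the factor that commits mesenchymal cells to cartilage, and Sox5 and Sox6 act with it on cartilage matrix genes. Runx2 and, downstream of it, Sp7 (osterix) are required for bone-forming osteoblasts, whereas their relative Runx1 is best known for blood stem cells and is also made in regenerating muscle. Scx (scleraxis) marks tendon progenitors. Foxc1 and Foxc2 are closely related forkhead factors of the early mesoderm, of skeletal mesenchyme and of vessels.

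Levels are given in TPM, the usual share of a library's transcripts after correction for transcript length, so levels of different genes can be compared per length. An estimated 48012825 to 58002740 reads lay behind each library. The pulse was visible in 5 direct BMP targets, Smad7, Smad6, Id1, Id2 and Id3, each higher in the stimulated library of every isolation. Smad7, an inhibitory SMAD that feeds back on the pathway, stood at 27.3 and 22.5 TPM in BMP4 libraries and 3.36 and 2.01 TPM in vehicle_a libraries, and at 29.3 and 32.1 TPM in BMP6 libraries and 5.01 and 6.27 TPM in vehicle_b libraries. Of the muscle stem cell markers, Myod1, Des, Itga7 and Pax7 were all present, with Pax7 between 11.1 and 16.9 TPM. Of 6 leukocyte markers, the defining Ptprc and Adgre1 were at 0 in every library, whereas Itgam stood at 10.9 to 17.1 TPM and Cd68 at 0.919 to 2.01 TPM. The leukocyte sum was 12.01 to 17.1 TPM in BMP4 and 14.5 to 17.7 TPM in vehicle_a libraries, and 15.4 to 16.5 TPM in BMP6 and 15.7 to 18.7 TPM in vehicle_b libraries. Of 6 endothelial markers Emcn was at 0, and together they summed to 0.653 to 1.34 TPM in BMP4 and 0.554 to 1.198 TPM in vehicle_a libraries, and to 0.447 to 0.667 TPM in BMP6 and 0.521 to 0.865 TPM in vehicle_b libraries. Fibroblast markers were not: their 10 genes summed to 171 to 282 TPM in BMP4 and 189 to 322 TPM in vehicle_a libraries, and to 57.6 to 70.3 TPM in BMP6 and 62.5 to 68.8 TPM in vehicle_b libraries. Gsn (gelsolin), which muscle cells also make, and Col3a1 gave most of that sum, whereas Pdgfra, the receptor used to sort fibro-adipogenic cells, stayed between 0.193 and 0.354 TPM.

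The vehicle libraries already held several of the factors. In order of their mean level over the 4 vehicle libraries, Scx came first with 60.4 TPM, followed by Runx1 with 50.9 TPM, Runx2 with 22.2 TPM, Sox9 with 11.6 TPM, Sp7 with 4.54 TPM, Sox6 with 2.40 TPM, Foxc2 with 0.431 TPM, Foxc1 with 0.401 TPM and Sox5 with 0.0950 TPM. In that order the vehicle ranges of neighbouring genes overlapped, except those of Runx1 and Runx2 and those of Foxc1 and Sox5. Sox5 rested on 22 to 38 estimated reads per library and fell under the minimum of 0.5 TPM, as a mean over the 8 libraries, that was set for testing. The other 8 members passed it, but Foxc1 and Foxc2 did so through their stimulated libraries.

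After 1 h, 5 of the 8 tested factors, namely Foxc2, Foxc1, Sox9, Sp7 and Scx, stood higher in every BMP4 library than in either vehicle_a library. With BMP6 the 5 were Foxc2, Foxc1, Sp7, Scx and Runx2, the last of them by a narrow margin. Over all tested loci, such a gap with the stimulated group on top occurred in 10.3% for BMP4 and 10.6% for BMP6. In both experiments together it was seen for 4 members (Foxc2, Foxc1, Sp7 and Scx), against 2.02% of all loci. Compared within each isolation, 6 members (those 4, Sox9 and Runx2) were above their own vehicle in 4 of 4 isolations, against 8.19% of all loci. The median log2 change of the 8 tested members was 0.53 for BMP4 and 0.21 for BMP6, where the medians of all loci were -0.016 and -0.0021. Since the minimum was met by Foxc1 and Foxc2 only with their stimulated libraries, the same counts were taken over the 6 members that met it in vehicle alone: 3 stood apart with BMP4, 3 with BMP6 and 2 in both, and 4 were higher in 4 of 4 isolations. Over the 16758 tested loci that met the minimum in vehicle alone, these shares were 10.1%, 10.3%, 1.87% and 7.95%. The median log2 change of the 6 was 0.23 and 0.11, against -0.017 and -0.0026 over those loci. These are whole-culture RNA levels, in which a shift in the share of a cell type cannot be told apart from a shift in RNA per cell.

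**Figure D1:**
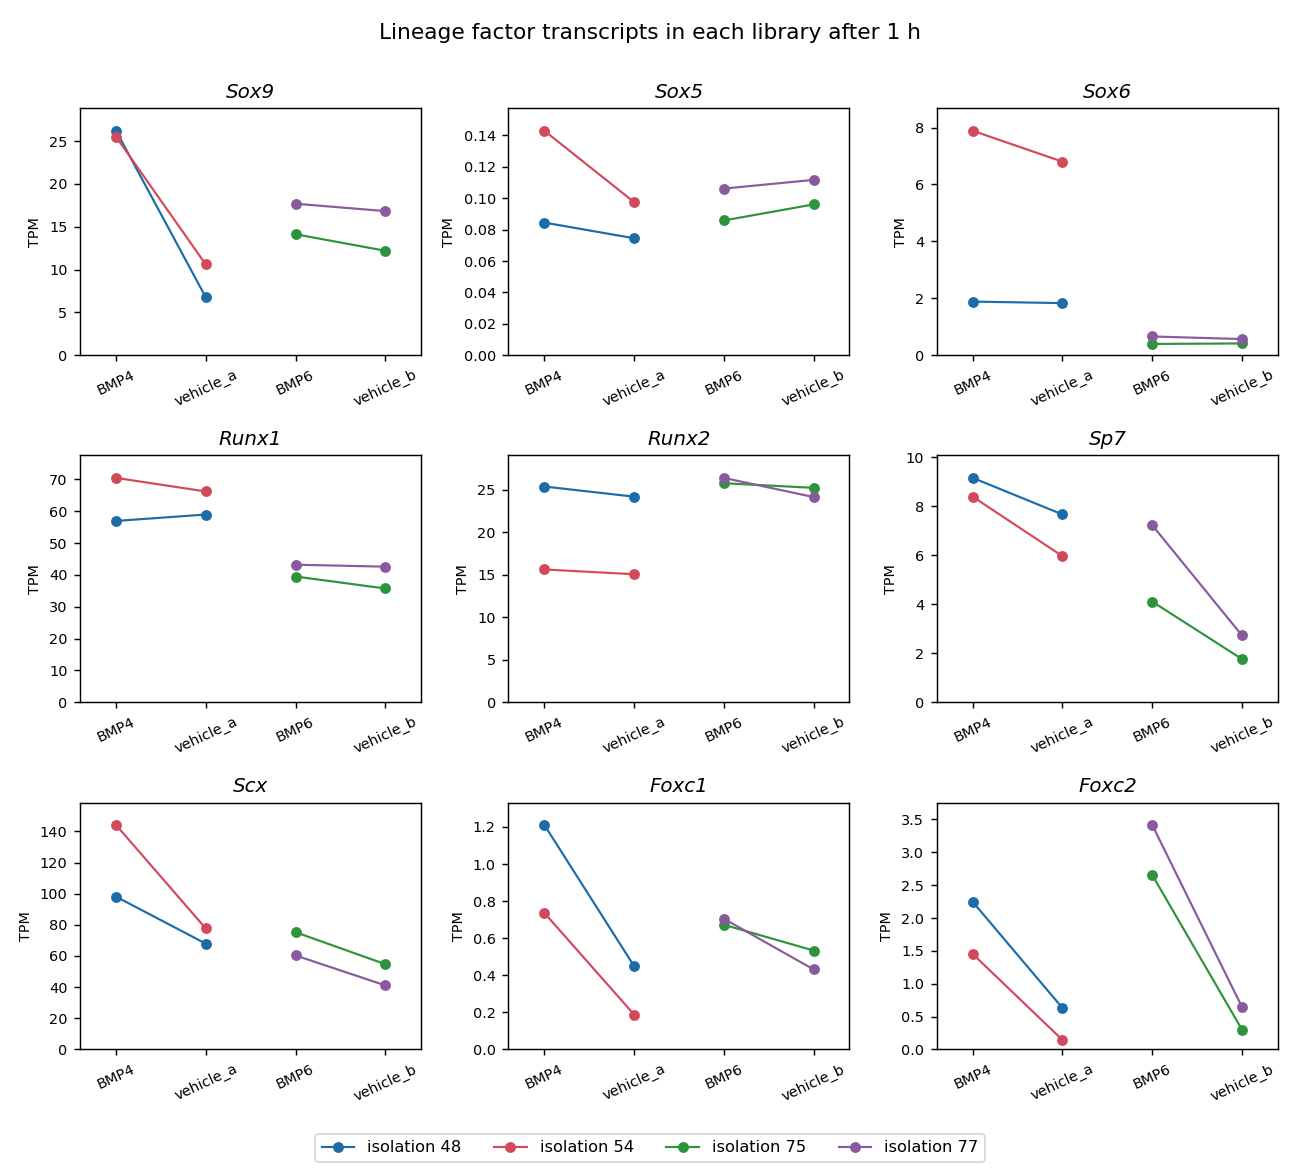
TPM of the 9 factors in each of the 8 libraries, with the stimulated group left of its vehicle and lines joining libraries of the same cell isolation. Foxc2, Foxc1, Sp7 and Scx slope down from the stimulated to the vehicle library in all 4 isolations, Sox9 does so steeply only in isolations 48 and 54, and Sox6, Runx1 and Runx2 are nearly level within isolations.

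Foxc2 had the largest log2 change of the tested members with BMP6, and with BMP4 only Sox9 exceeded it in limma's fit. It is on chromosome 8, 121842910 to 121845634 on the plus strand (GRCm39). Its level was 2.25 and 1.45 TPM in BMP4 libraries and 0.630 and 0.144 TPM in vehicle_a libraries. In BMP6 libraries it was 2.66 and 3.42 TPM, and in vehicle_b libraries 0.303 and 0.647 TPM. Neither pair of groups overlapped, and the lowest stimulated library held over 2 times the highest vehicle library. The ratio to the isolation's own vehicle was 3.56 and 10.1 in isolations 48 and 54 with BMP4, and 8.77 and 5.28 in isolations 75 and 77 with BMP6. The ratios are loose, since 15 to 69 estimated reads lay behind the vehicle_a values.

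In limma's test on log2(TPM + 0.5) with 4 group means, Foxc2 changed by 1.44 with BMP4 (SE 0.35, adjusted p = 0.742) and by 1.87 with BMP6 (SE 0.35, adjusted p = 0.734), so neither passed the threshold of 0.05 over the 16908 loci tested. With the isolation as a block, which removes the level that paired libraries share, the same changes had an SE of 0.15 and passed, with limma adjusted p of 0.0409 for BMP4 and 0.0452 for BMP6. For the mean of both ligand responses Foxc2 rose by 1.66 in the blocked fit (SE 0.11, limma adjusted p = 0.0114). Leaving out an isolation leaves its ligand with 1 pair of libraries, which is then assumed to vary like the pairs of the other ligand. The BMP4 call was lost when any isolation was left out (adjusted p 0.0749 to 0.149). The BMP6 call was kept without isolation 54 (0.0462) and lost without isolation 48 (0.0548), 75 (0.505) or 77 (0.424). For the mean of both the adjusted p was 0.0233 without isolation 48 and 0.0305 without 54, and the call was lost without 75 (0.113) or 77 (0.0989). The added 0.5 TPM compresses so low a gene: voom on estimated reads with the block gave 2.27 for BMP4 and 2.68 for BMP6.

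Foxc1 lies on chromosome 13, 31990616 to 31996459 on the plus strand. Its level was 1.21 and 0.736 TPM in BMP4 libraries, against 0.449 and 0.188 TPM in vehicle_a libraries. In BMP6 libraries it was 0.672 and 0.705 TPM, against 0.534 and 0.432 TPM in vehicle_b libraries. The groups stayed apart in both experiments, but with BMP6 the distance was small. The limma log2 change was 0.85 with BMP4 (SE 0.25, adjusted p = 1; 0.100 with the block) and 0.28 with BMP6 (SE 0.25, adjusted p = 1; 0.983 with the block), and no limma fit on TPM called it. Voom with the block did call it for BMP4, with a log2 change of 1.63 (adjusted p = 0.00775).

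Foxc1 and Foxc2 are the 2 members whose transcripts share 50-base windows with each other. Their longest identical stretch in the GENCODE M21 transcripts is 53 bases, at 1014 to 1066 of the Foxc1 transcript and 862 to 914 of the Foxc2 transcript, and is shown because reads of 50 nt that fall wholly within it cannot be assigned to one of them:
Foxc1 and Foxc2: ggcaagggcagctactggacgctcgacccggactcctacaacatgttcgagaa
Only 4 of the 50-base windows are affected, which is 0.069% of Foxc1's windows and 0.149% of Foxc2's.

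The nearest locus below Foxc1 in coordinates that met the minimum of 0.5 TPM, 175230 bases away, is Foxf2, another forkhead factor of mesenchyme. It stood at 4.91 and 3.45 TPM in BMP4 libraries and 2.06 and 1.73 TPM in vehicle_a libraries, and at 4.31 and 2.77 TPM in BMP6 libraries and 2.37 and 1.61 TPM in vehicle_b libraries. Both experiments thus showed the stimulated group above its vehicle with no overlap. Foxf2 rose by 0.82 for the mean of both ligands in the blocked limma fit (SE 0.08, adjusted p = 0.0316; 0.713 without the block). Chosen in the same way on the other side of Foxc1, Gmds, an enzyme of fucose metabolism 7103 bases away, had log2 changes of 0.04 with BMP4 and -0.00018 with BMP6. Below Foxc2, Mthfsd, 7779 bases away, had log2 changes of -0.11 and -0.02. Of the 11 other forkhead genes looked up, 6 were tested and Foxf2 alone passed in a limma fit on TPM. In the blocked fit 5 of the 6 had an unadjusted p under 0.05 for BMP4 and 3 for BMP6. Among all tested loci, 3439 and 967 had such a p in that fit. The directions were mixed: 2 of the 6 had a positive log2 change with BMP4 (median -0.14) and 5 with BMP6 (median 0.07). Voom with the block called 3 for BMP4 (Foxo1, Foxm1 and Foxf2) and 0 for BMP6. Of these 3, Foxm1 had a negative log2 change with BMP4 in the blocked limma fit (-0.28). Foxo1, a regulator of metabolism and atrophy in muscle, had log2 changes of 0.70 with BMP4 and 0.58 with BMP6 (blocked limma adjusted p 0.0976 and 0.476).

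**Figure D2:**
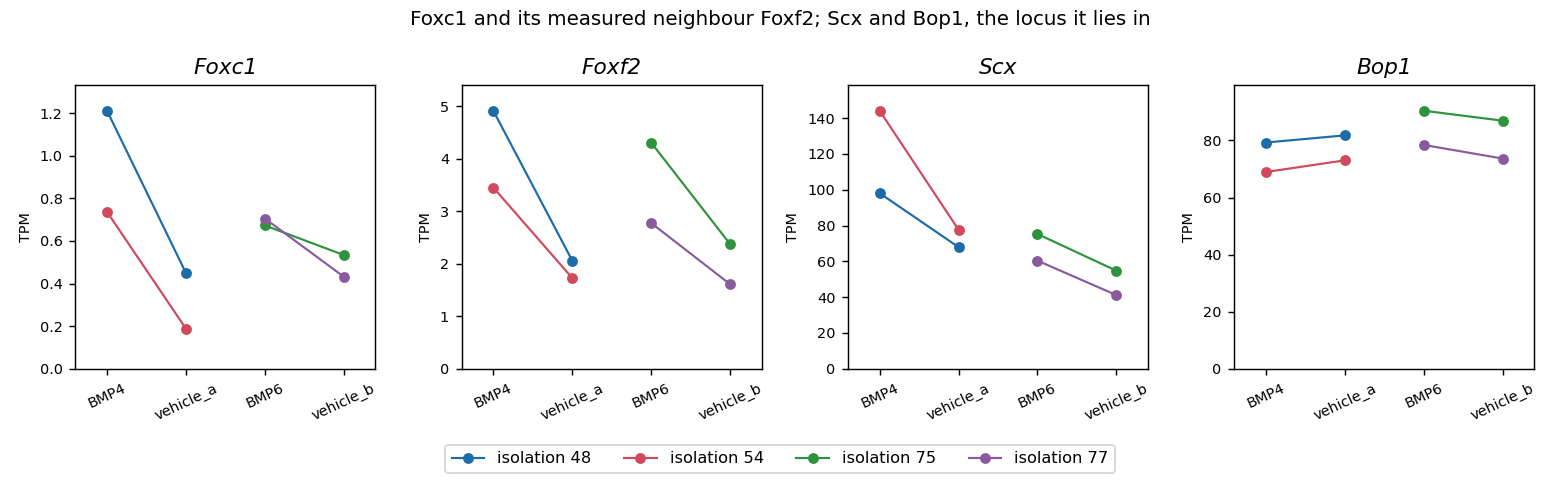
TPM in each library of Foxc1 and its neighbour Foxf2, and of Scx and Bop1, the gene in which Scx lies; stimulated groups stand left of their vehicles and lines join libraries of 1 isolation. Foxc1, Foxf2 and Scx are higher in the stimulated library of all 4 isolations, whereas Bop1 is lower with BMP4 and higher with BMP6 by small margins.

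The Foxc1 start could be looked at in sequence, since a window that begins upstream of the start and ends shortly after it is in RefSeq's promoter table (build GRCm38.p6, chr13:31806396-31806695, plus strand). Capitals mark 2 GC-rich letter strings known to bind the SMADs of the BMP branch, GGCGCC and, shown here by its complement GGCTCC since it lies on the other strand, GGAGCC:
Foxc1: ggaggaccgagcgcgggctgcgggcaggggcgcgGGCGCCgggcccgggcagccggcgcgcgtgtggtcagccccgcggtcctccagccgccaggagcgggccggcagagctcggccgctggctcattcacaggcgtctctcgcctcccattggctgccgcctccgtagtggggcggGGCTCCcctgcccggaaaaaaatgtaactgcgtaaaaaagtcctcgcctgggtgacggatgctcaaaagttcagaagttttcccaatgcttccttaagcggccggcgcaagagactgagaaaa
Each string occurs once. Among all 32851 windows of the table GGCGCC was found in 11.9% and GGAGCC in 30.8%, on either strand. The window is GC-rich, at 67.3% against a median of 52.7%, which makes such strings more frequent.

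Sox9 changed with BMP4 and hardly moved with BMP6. The gene lies on chromosome 11, 112673050 to 112678586 on the plus strand, and 1117 to 4164 estimated reads lay behind its values. It had 26.2 and 25.5 TPM in BMP4 libraries, against 6.76 and 10.6 TPM in vehicle_a libraries. In BMP6 libraries it had 14.1 and 17.7 TPM, against 12.2 and 16.8 TPM in vehicle_b libraries. Both BMP4 libraries were above every other library of the series, while the BMP6 and vehicle_b ranges overlapped. The ratio to the isolation's own vehicle was 3.88 and 2.41 in isolations 48 and 54, and 1.16 and 1.05 in isolations 75 and 77.

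The limma log2 change of Sox9 with BMP4 was 1.55 (SE 0.25, adjusted p = 0.367), and in the blocked fit Sox9 rose by the same 1.55 (SE 0.16, limma adjusted p = 0.0407). Without isolation 48 or 54 the adjusted p was 0.0296 and 0.0194, but then BMP4 had 1 library and 1 vehicle and the spread came from the BMP6 experiment alone. The call was lost without isolation 75 (0.123) or 77 (0.118), which leave both BMP4 pairs in place. With BMP6 the change was 0.14 (SE 0.25, adjusted p = 1 in both limma fits), with a 95% confidence interval of -0.46 to 0.74. The test of the difference itself gave a BMP6 response 1.42 below the BMP4 response (log2 difference -1.42, SE 0.35, interval -2.26 to -0.57), which did not pass over all loci (limma adjusted p = 1; 0.253 with the block). Under voom with the block the difference was -1.47 and passed narrowly (adjusted p = 0.0495). The ligands were given to different isolations whose vehicles differed in Sox9 (14.5 ± 3.27 TPM in vehicle_b and 8.68 ± 2.71 TPM in vehicle_a, mean ± SD, n = 2 each), so ligand and experiment cannot be told apart.

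Among 16 cartilage matrix genes and Sox9 targets, 2 were tested and none passed for either ligand in either limma fit or under voom with the block, nor had any an unadjusted p under 0.05. Cnmd, Col9a1, Col9a2 and Snorc were at 0 in all 8 libraries, and Acan, the core proteoglycan of cartilage, did not exceed 0.363 TPM. Col2a1, the main cartilage collagen, stood at 0.264 and 1.57 TPM in BMP4 libraries and 0.311 and 0.569 TPM in vehicle_a libraries. Its BMP6 values were 0.122 and 0.188 TPM, below 0.288 and 0.552 TPM in vehicle_b libraries. Chst11, a chondroitin sulfotransferase that many cell types make, was the most abundant of the 16 by its mean, with 6.998 and 3.64 TPM in BMP4 and 6.29 and 3.65 TPM in vehicle_a libraries, and 11.4 and 12.3 TPM in BMP6 and 10.8 and 12.1 TPM in vehicle_b libraries.

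The genes whose log2(TPM + 0.5) followed that of Sox9 most closely over the 8 libraries were Cdc73 (Pearson r = 0.966), Bhlhe40 (0.959) and Tm9sf3 (0.940). Bhlhe40, a repressor linked to the clock and to hypoxia, had 83.3 and 82.2 TPM in BMP4 libraries and 16.5 and 19.9 TPM in vehicle_a libraries, and 40.0 and 54.4 TPM in BMP6 libraries and 24.1 and 34.6 TPM in vehicle_b libraries. All such r are descriptions over 8 libraries that share isolations and treatment.

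Sox5 and Sox6, the partners of Sox9, showed no comparable pattern. Sox5 (chromosome 6, minus strand) lay at 0.0845 and 0.143 TPM in BMP4 and 0.0745 and 0.0975 TPM in vehicle_a libraries, and at 0.0859 and 0.106 TPM in BMP6 and 0.0961 and 0.112 TPM in vehicle_b libraries. All groups overlapped, and 8.98% of Sox5's 50-base windows occur in transcripts of other genes. Sox6 (chromosome 7, 115070107 to 115637979, minus strand) had 1.88 and 7.89 TPM in BMP4 and 1.83 and 6.80 TPM in vehicle_a libraries. It had 0.397 and 0.660 TPM in BMP6 and 0.414 and 0.568 TPM in vehicle_b libraries. The level of Sox6 followed the isolation: both libraries of isolation 54 were high, both of isolation 48 intermediate, and all 4 of isolations 75 and 77 low. Within an isolation the ratio of the stimulated to the vehicle library stayed between 0.958 and 1.16, and the blocked limma log2 change was 0.12 with BMP4 (SE 0.12, adjusted p = 0.626) and 0.05 with BMP6 (SE 0.12, adjusted p = 1).

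The 3 genes most like Sox6 over the 8 libraries all belong to muscle differentiation. They were Myoz2, a calsarcin of the sarcomere, Itgb1bp2 (melusin), a muscle protein that binds integrin, and Mef2c, a transcription factor of muscle differentiation, each with r = 0.999. Mef2c had 9.24 and 75.2 TPM in BMP4 and 8.61 and 62.4 TPM in vehicle_a libraries, and 1.80 and 2.21 TPM in BMP6 and 1.59 and 2.27 TPM in vehicle_b libraries. In isolation 54 Myoz2 stood at 47.97 TPM with BMP4 and 43.7 TPM with vehicle. In muscle fibres Sox6 is known to repress genes of the slow type. None of the 15 other Sox genes looked up, 7 of them tested, passed for either ligand in either limma fit, although 3 had an unadjusted p under 0.05 for BMP4 in the blocked fit. Voom with the block called 1 of them for BMP4, Sox11, with 8.75 and 10.97 TPM in BMP4 and 7.30 and 7.15 TPM in vehicle_a libraries. The most abundant of them per length, by the mean over the 8 libraries, was Sox4, at 15.9 and 8.31 TPM in BMP4, 15.3 and 9.29 TPM in vehicle_a, 35.4 and 45.6 TPM in BMP6 and 36.4 and 47.4 TPM in vehicle_b libraries.

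**Figure D3:**
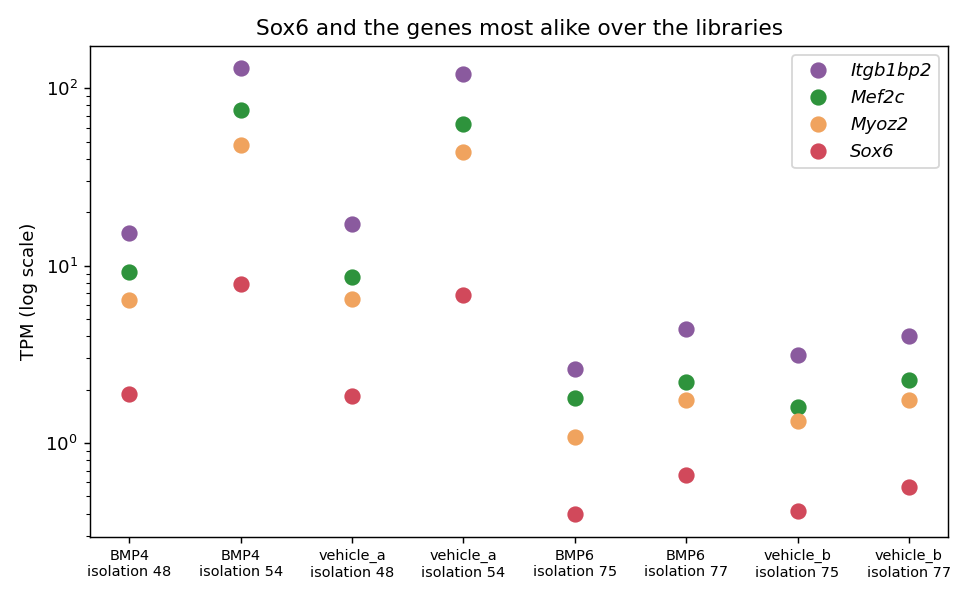
TPM on a log scale of Sox6 and the 3 genes whose levels were most like it, one column of points per library. All 4 genes are highest in both libraries of isolation 54, with BMP4 or vehicle_a, and lowest in the libraries of isolations 75 and 77.

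Sp7, the osteoblast factor, lies on chromosome 15, 102265041 to 102275403 on the minus strand. It had 9.16 and 8.40 TPM in BMP4 libraries, against 7.67 and 5.97 TPM in vehicle_a libraries. In BMP6 libraries it had 4.11 and 7.23 TPM, against 1.77 and 2.73 TPM in vehicle_b libraries. The stimulated libraries were above their vehicles without overlap in both experiments, and the ratio within an isolation was larger with BMP6 (2.33 and 2.65) than with BMP4 (1.19 and 1.41). Both vehicle_a libraries nevertheless exceeded the first BMP6 library.

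The limma log2 change of Sp7 was 1.14 with BMP6 (SE 0.29, adjusted p = 1; 0.0590 with the block, SE 0.10) and 0.35 with BMP4 (SE 0.29, adjusted p = 1; 0.169 with the block). Neither passed, but for the mean of both ligands Sp7 rose by 0.75 in the blocked fit (SE 0.07, limma adjusted p = 0.0334), a call lost when any isolation was left out (0.0540 to 0.250). The BMP6 response exceeded the BMP4 response by 0.79 (SE 0.42, interval -0.21 to 1.79, limma adjusted p = 1; 0.261 with the block), so a difference between the ligands was not shown. The starting level was lower in vehicle_b: Sp7 stood 1.42 below vehicle_a on the log2 scale (SE 0.29, limma adjusted p = 0.0218 without the block). That fit treats the paired libraries of an isolation as independent, so its SE and adjusted p may be too small. Of all loci 27.2% (4602) differed between the vehicles, a count that fell to 420 without vehicle_a replicate 2, to 12 without vehicle_b replicate 1 and to 5 without vehicle_b replicate 2, and the Sp7 call was lost without vehicle_a replicate 2 (0.0790), vehicle_b replicate 1 (0.104) or vehicle_b replicate 2 (0.0894).

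Among the genes most like Sp7 over the libraries were Klf12 (r = 0.950) and Aebp1 (0.947).

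Runx2 and Runx1 stayed level within every isolation. Runx2 (chromosome 17, 44807373 to 45125684, minus strand) had 25.4 and 15.6 TPM in BMP4 and 24.2 and 15.1 TPM in vehicle_a libraries, and 25.8 and 26.4 TPM in BMP6 and 25.2 and 24.1 TPM in vehicle_b libraries. The ratio to the isolation's own vehicle lay between 1.02 and 1.09, and isolation 54 was the low one in both of its libraries. Runx1 (chromosome 16, 92398354 to 92623037, minus strand) had 57.0 and 70.5 TPM in BMP4 and 59.0 and 66.2 TPM in vehicle_a libraries, and 39.5 and 43.2 TPM in BMP6 and 35.7 and 42.6 TPM in vehicle_b libraries. Its groups overlapped in both experiments, with ratios between 0.966 and 1.11.

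In the blocked limma fit the 95% confidence intervals were narrow for both genes: -0.07 to 0.19 for Runx2 with BMP4 and -0.05 to 0.21 with BMP6, and -0.12 to 0.16 for Runx1 with BMP4 and -0.06 to 0.22 with BMP6. The only Runx1 difference that passed was between the vehicles, with vehicle_b 0.67 below vehicle_a (log2 change -0.67, SE 0.15, limma adjusted p = 0.0268). This call came from the fit without the block, which treats paired libraries as independent. It was lost without vehicle_a replicate 2 (0.134), either vehicle_b library (0.127 and 0.103) or either BMP6 library (0.0554 for each).

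**Figure D4:**
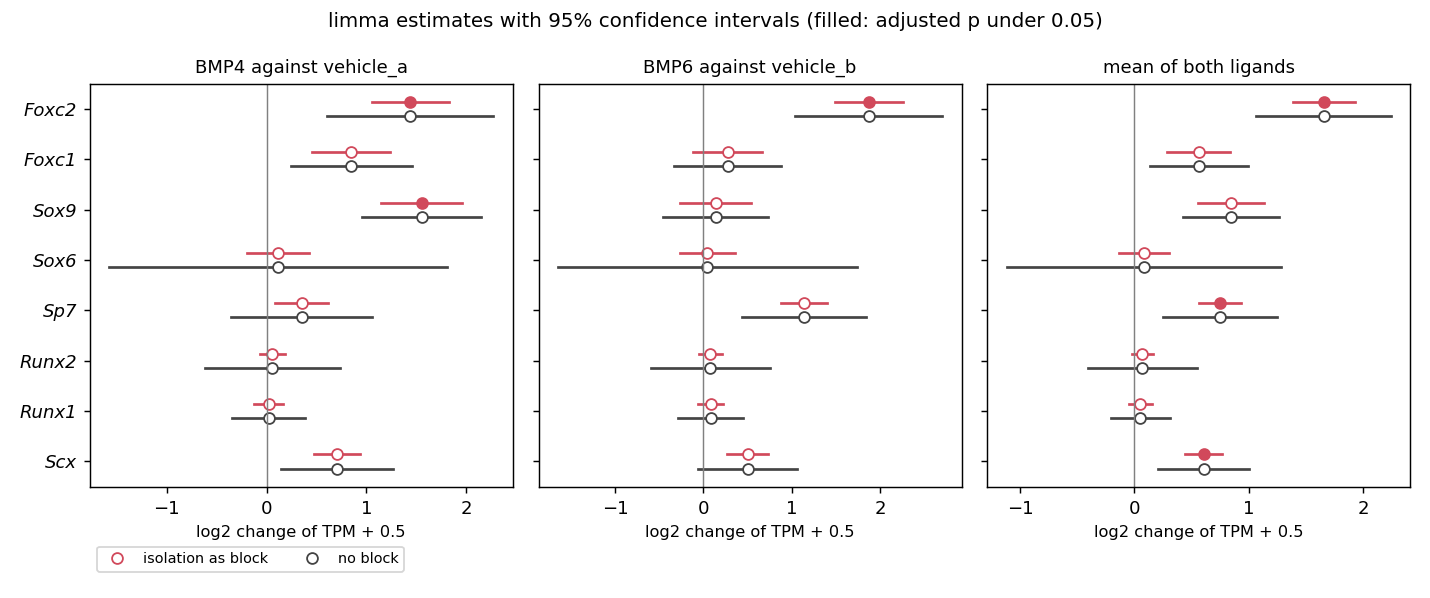
limma log2 changes of the 8 tested factors with 95% confidence intervals for BMP4, for BMP6 and for the mean of both, with the isolation as a block (red) and without it (grey); filled points have an adjusted p under 0.05. Filled points are Foxc2 in all 3 panels, Sox9 with BMP4, and Sp7 and Scx for the mean, all with the block.

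Both Runx genes have a distal and a proximal start in the mouse, from which proteins with different first residues are made, and the deposited transcripts separate them. For Runx1 the distal transcript made up 73.4% and 65.3% of the gene's TPM in BMP4 libraries and 58.7% and 63.7% in vehicle_a libraries. In BMP6 libraries it made up 84.6% and 85.4%, and in vehicle_b libraries 84.2% and 75.1%. The distal transcript thus held most of the Runx1 TPM in every library. Its annotated last base is 92398354, beyond those of the proximal transcripts (92400544 and 92402286). Reads past those ends can go only to the distal transcript, so the shares need not reflect the use of the starts. For Runx2 the transcripts of the proximal start led, with 85.5% and 79.3% in BMP4, 58.2% and 74.0% in vehicle_a, 87.9% and 92.6% in BMP6 and 87.9% and 91.8% in vehicle_b libraries. These shares were not tested. They rest on how the authors' program divided reads between transcripts that share most exons: 1 distal Runx2 transcript was listed at 6.80 TPM in vehicle_a replicate 1 and at 0.0134 TPM in BMP4 replicate 1.

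**Figure D5:**
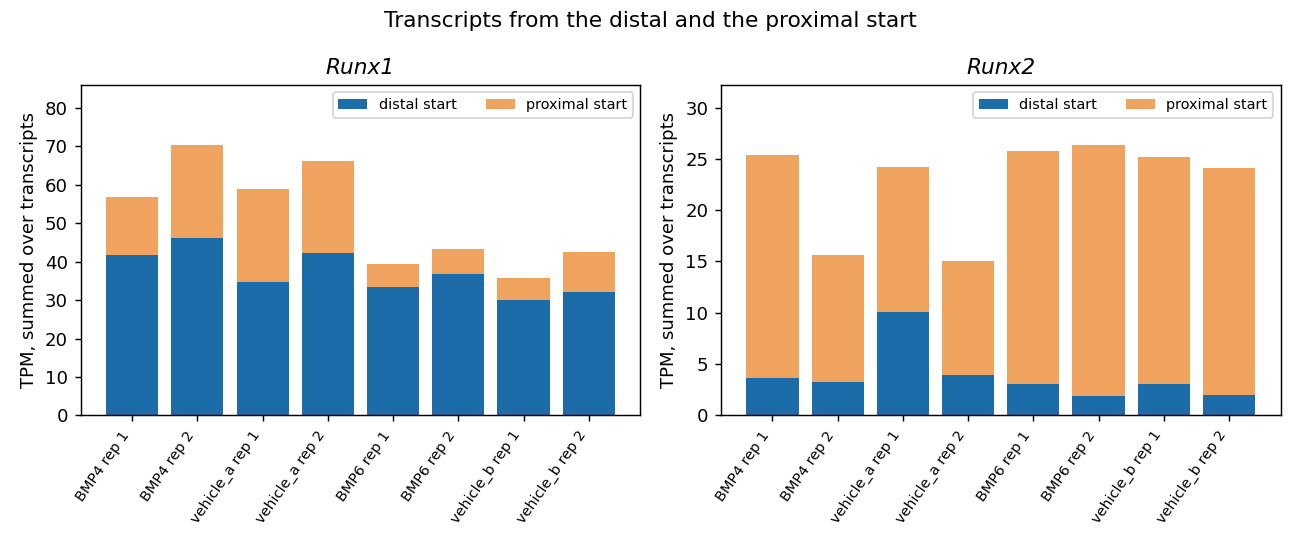
Stacked TPM of transcripts from the distal (blue) and proximal (orange) start of Runx1 and Runx2 in each library, each stimulated group left of its vehicle. Blue fills most of every Runx1 bar and orange most of every Runx2 bar; the total heights change little between a stimulated library and the vehicle of the same isolation.

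The distal starts of Runx1 and Runx2 are shown side by side because the same letters stand near both. The windows are RefSeq's on GRCm38.p6, both on the minus strand, chr16:92826025-92826324 for Runx1 and chr17:44814578-44814877 for Runx2. Capitals mark the longest stretch of 22 bases that is identical in both:
Runx1: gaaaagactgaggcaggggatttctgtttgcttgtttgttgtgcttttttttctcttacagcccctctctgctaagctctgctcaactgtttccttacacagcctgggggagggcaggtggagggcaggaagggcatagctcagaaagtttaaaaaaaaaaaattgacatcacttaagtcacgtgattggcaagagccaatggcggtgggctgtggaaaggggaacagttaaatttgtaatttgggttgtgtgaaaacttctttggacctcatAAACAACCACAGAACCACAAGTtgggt
Runx2: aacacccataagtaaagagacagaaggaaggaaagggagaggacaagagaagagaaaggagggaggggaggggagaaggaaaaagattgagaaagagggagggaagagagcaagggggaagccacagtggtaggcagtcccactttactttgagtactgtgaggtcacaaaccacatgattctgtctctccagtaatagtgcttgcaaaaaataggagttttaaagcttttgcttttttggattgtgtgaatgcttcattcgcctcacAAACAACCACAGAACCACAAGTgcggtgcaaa
The stretch holds the string AACCACA, to which RUNX proteins bind, in 2 copies that do not overlap. Counting both strands, the Runx1 window holds 2 copies and the Runx2 window 3, whereas 5.27% of all windows of the table hold any and 0.201% hold 2 or more. Neither window holds GGCGCC, but the window at the proximal Runx1 start holds 1 copy of it. The Sox5 window holds 1 copy of GGAGCC. A further string looked for, CAGACA, had 2 copies in 1 Sox6 window and 1 copy in another. It occurred in 21% of all windows. Promoter entries were found for 5 of the 9 members (Sox5, Sox6, Runx1, Runx2 and Foxc1).

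Several loci overlap the Runx genes. Supt3, a subunit of a histone acetylase complex, overlaps the distal part of Runx2 on the opposite strand without sharing exon bases, and had log2 changes of 0.06 with BMP4 and 0.07 with BMP6. The antisense locus Runx2os1 shares 519 exon bases with Runx2 and averaged 2.03 TPM. Gm26626 shares 106 exon bases with Runx1 and averaged 0.537 TPM. No strand option is recorded for the authors' quantification, so reads in these shared bases may have been counted for either gene.

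Of 13 RUNX partners, co-regulators and relatives, 12 were tested and none passed for either ligand in either limma fit. For BMP4, 4 had an unadjusted p under 0.05 in the blocked fit, and voom with the block called 3 (Cbfb, Wwtr1 and Smad1). Cbfb, the partner that stabilises RUNX proteins on DNA, was abundant, with 80.9 and 77.1 TPM in BMP4 and 70.4 and 61.1 TPM in vehicle_a libraries, and 74.7 and 78.0 TPM in BMP6 and 73.0 and 80.0 TPM in vehicle_b libraries. The relative Runx3 did not exceed 1.46 TPM. Among 16 bone matrix genes and RUNX2 or SP7 targets, 6 were tested and none passed in either limma fit. For BMP4, 2 had an unadjusted p under 0.05 in the blocked fit and voom with the block called 1, Col1a1, with a lower level. Ibsp, Mepe and Dlx5 were at 0 in all 8 libraries. Spp1 (osteopontin), made by many cell types besides bone, had 356 and 119 TPM in BMP4 and 343 and 131 TPM in vehicle_a libraries, and 426 and 984 TPM in BMP6 and 452 and 1070 TPM in vehicle_b libraries, so that libraries of 1 isolation were alike.

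Scx was the most abundant of the factors in stimulated cells. It lies on chromosome 15, 76341720 to 76343649 on the plus strand, inside the ribosome-biogenesis gene Bop1 (76337189 to 76361477, minus strand), with no exon base in common. Scx had 98.1 and 144 TPM in BMP4 libraries, against 67.9 and 77.7 TPM in vehicle_a libraries. In BMP6 libraries it had 75.3 and 60.4 TPM, against 54.7 and 41.1 TPM in vehicle_b libraries. The groups did not overlap in either experiment, and the ratio within an isolation was 1.44 and 1.86 with BMP4 and 1.38 and 1.47 with BMP6. Bop1 did not follow: it had 79.3 and 69.0 TPM in BMP4 and 81.8 and 73.0 TPM in vehicle_a libraries, and 90.4 and 78.4 TPM in BMP6 and 86.9 and 73.6 TPM in vehicle_b libraries, log2 changes of -0.06 and 0.07.

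The limma log2 change of Scx was 0.71 with BMP4 (SE 0.23, adjusted p = 1; 0.0617 with the block, SE 0.09) and 0.50 with BMP6 (SE 0.23, adjusted p = 1; 0.336 with the block). For the mean of both ligands Scx rose by 0.60 in the blocked fit (SE 0.06, limma adjusted p = 0.0428; 0.944 without the block). That adjusted p was 0.0155 without isolation 48 and 0.0331 without 54, each with 1 BMP4 pair left, and the call was lost without isolation 75 (0.210) or 77 (0.262). The responses to the ligands differed by -0.21, BMP6 minus BMP4, with an interval of -0.997 to 0.587.

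Tendon genes that Scx is known for were uneven in level. Over the 8 libraries Tnc stood at 25.3 to 268 TPM and Bgn at 13.5 to 79.7 TPM. Of 14 tendon matrix genes and SCX targets, 7 were tested and none passed for either ligand in either limma fit or under voom with the block; 1 had an unadjusted p under 0.05, for BMP4 in the blocked fit. Tnmd (tenomodulin), a defining marker of tenocytes, was at 0 in all 8 libraries, as was Kera. Fmod (fibromodulin) had 2.61 and 5.89 TPM in BMP4 and 3.15 and 6.51 TPM in vehicle_a libraries, and did not exceed 0.0661 TPM in BMP6 or vehicle_b libraries. The collagen gene Col1a1 had 11.2 and 59.7 TPM in BMP4 and 13.8 and 70.2 TPM in vehicle_a libraries, and 0.876 and 2.08 TPM in BMP6 and 0.946 and 1.82 TPM in vehicle_b libraries. Tenocyte markers summed to 3.50 to 10.3 TPM in BMP4 and 4.24 to 11.7 TPM in vehicle_a libraries, and to 0.514 to 0.660 TPM in BMP6 and 0.720 to 0.739 TPM in vehicle_b libraries. In all 4 isolations that sum was lower in the stimulated library than in its vehicle, and Scx was higher. Only 2 of the 6 tenocyte markers were tested, however, and the sums of the BMP6 experiment rested on very low values. Their fall with BMP6 came largely from Thbs4, at 0 and 0.103 TPM in BMP6 and 0.193 and 0.203 TPM in vehicle_b libraries. The part of tenocytes in the rise of Scx was not tested. Egr1, an early response gene that acts on tendon collagens, stood apart in 1 library, with 210.7 TPM in vehicle_a replicate 2, beside 20.6 and 31.9 TPM in BMP4 libraries and 3.89 TPM in the other vehicle_a library; its part in the results was not tested.

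The genes most like Scx over the 8 libraries were Rabgef1 (r = 0.987), Relt (0.981) and Ube2j1 (0.971). Relt, a receptor of the tumour necrosis factor family, had 7.43 and 9.50 TPM in BMP4 and 4.37 and 5.27 TPM in vehicle_a libraries, and 6.04 and 4.21 TPM in BMP6 and 3.45 and 2.68 TPM in vehicle_b libraries. For Foxc2 they were Dlx2 (0.979), Enc1 (0.966) and Id3 (0.966). Dlx2, a homeobox gene of the face and forebrain, had 18.7 and 14.6 TPM in BMP4 and 3.97 and 0.912 TPM in vehicle_a libraries, and 24.3 and 29.8 TPM in BMP6 and 3.54 and 3.94 TPM in vehicle_b libraries. For Foxc1 they included Slc4a4 (0.930). For Runx1 the list was Stx7, Gskip and Bphl (0.993 to 0.996), and for Runx2 Atm, Prdm16 and Capn2 (0.988 to 0.993).

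Counted over the members, limma without the block called 0 of 8 for BMP4, for BMP6, for the mean of both and for the difference, while 0.0237%, 0.0118%, 0.071% and 0% of all loci were called. Of the 5 BMP targets the same fit called 1, 0, 3 and 0. At an unadjusted p under 0.05 in that fit the members counted 4, 2, 5 and 1, and the 16908 loci 560, 213, 405 and 244. These members include Foxc1 and Foxc2 for BMP4 and the mean, and Foxc2 for BMP6. Both genes met the minimum only with their stimulated libraries. With the block, limma called 2 members for BMP4 (Sox9 and Foxc2), 1 for BMP6 (Foxc2), 3 for the mean (Foxc2, Sp7 and Scx) and 0 for the difference, all higher, where 0.633%, 0.148%, 0.674% and 0% of all loci were called in either direction. Without Foxc1 and Foxc2, the blocked counts over the 6 members that met the minimum in vehicle alone were 1 (Sox9), 0, 2 (Sp7 and Scx) and 0, where 0.621%, 0.143%, 0.662% and 0% of loci under the same minimum were called. The blocked fit gave an unadjusted p under 0.05 to 5, 3, 5 and 3 members (BMP4, BMP6, mean, difference). The 16908 loci counted 3439, 967, 2263 and 2251. Again Foxc1 and Foxc2 are among the members for BMP4 and the mean, Foxc2 for BMP6 and Foxc1 for the difference. Voom with the block called 5 members for BMP4 and 5 for the mean (Sox9, Sp7, Scx, Foxc1 and Foxc2), 2 for BMP6 (Sp7 and Foxc2) and 1 for the difference (Sox9), where 6.3%, 2.23%, 0.503% and 0.408% of loci were called; over those 6 members the counts were 3, 3, 1 and 1.

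Markers of muscle stem cells and of other cells moved beside the factors. Of 10 muscle stem cell markers 9 were tested. In the blocked limma fit Myf5, a myogenic factor of muscle stem cells, fell with both ligands, by 1.172 with BMP4 (adjusted p = 0.00326) and by 0.70 with BMP6 (0.0192). Sdc4 (syndecan-4), a surface proteoglycan, had 25.1 and 10.7 TPM in BMP4 and 8.65 and 4.69 TPM in vehicle_a libraries, and 54.6 and 67.2 TPM in BMP6 and 55.2 and 68.2 TPM in vehicle_b libraries. It rose by 1.30 with BMP4 (SE 0.09, adjusted p = 0.0223) and changed by -0.02 with BMP6 (SE 0.09, adjusted p = 1). Voom with the block called Sdc4 (higher) and Pax7, Cdh15 and Myf5 (all lower) for BMP4, and Myod1 (higher) and Myf5 (lower) for BMP6. Cspg4 (NG2), listed as a pericyte marker and also made by other cells, rose by 0.49 for the mean of both ligands (SE 0.04, adjusted p = 0.0261). The 6 pericyte and smooth muscle markers summed to 29.4 to 60.0 TPM in BMP4 and 25.02 to 47.9 TPM in vehicle_a libraries, and to 11.8 to 17.9 TPM in BMP6 and 9.26 to 12.1 TPM in vehicle_b libraries. In all 4 isolations that sum was higher in the stimulated library than in its vehicle, but so was Cspg4, a large part of it. Cspg4 had 21.9 and 33.6 TPM in BMP4 and 17.0 and 23.3 TPM in vehicle_a libraries. It had 11.2 and 17.2 TPM in BMP6 and 7.61 and 11.4 TPM in vehicle_b libraries. Of the 6 markers 4 were tested, and 2 of them had a positive log2 change for the mean of both ligands (median -0.009). The 10 muscle stem cell markers summed to 2347 to 2598 TPM in BMP4 and 2601 to 2780 TPM in vehicle_a libraries, and to 1413 to 1756 TPM in BMP6 and 1275 to 1688 TPM in vehicle_b libraries. The part of these cells in the changes of the factors was not tested. The fibroblast sum was lower in the BMP4 library than in the vehicle library of the same isolation, and none of the 4 fibroblast markers tested passed in a limma fit (voom with the block called Col1a1 for BMP4, with a lower level).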

How the data were processed

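RNA of 8 muscle stem cell cultures was measured. The labels' protocols give poly(A) selection, 500 ng of input, stranded libraries and single-end reads of 50 nt; the submitters' processing notes list STAR 2.7.11a, SAMtools 1.17 and GRCm39. Deposited TPM values come from StringTie 2.2.1 on an annotation that the authors merged themselves, per the file headers. Its command has neither a strand option nor the correction for multi-mapped reads, so overlapping genes and paralogs are uncertain. Reads were estimated from the coverage that the authors deposited per transcript, multiplied by length and divided by read length. The joint table held the same TPM as each library's own table in all 55223 loci (tolerance 1e-05).

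The 16908 loci whose TPM averaged at least 0.5 across all libraries were tested with limma 3.58.1 (R 4.3.3) on log2(TPM + 0.5), using 4 group means and a variance trend. This scale understates changes of low genes. P-values are two-sided and adjusted by Benjamini-Hochberg over all these loci, with a threshold of 0.05. Each ligand was compared with its vehicle; the mean and the difference of both log2 changes, and vehicle_b against vehicle_a, were tested too. Isolation numbers in the labels pair each stimulated library with a vehicle library. Across loci, the paired deviations from group means had a correlation of 0.707 in isolations 48 and 54 and of 0.455 in 75 and 77. No replicates were alike enough to be 1 library (chi-square per gene 39.0 to 272.7 in stimulated and 38.0 to 247.2 in vehicle groups). Voom, from limma, was run on rounded estimated reads after TMM scaling. The code was tested on simulated data.

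Named were all members, list genes that passed (at most 5 a list), 5 BMP targets, loci overlapping members, and the 3 of 10688 loci most correlated with each tested member. Neighbouring loci, markers at 0 and other list genes given as examples were named after their values were seen. Members and lists were chosen with earlier results of these data known. Some of the genes most correlated with Sp7 and Foxc1 are not reported here. FPKM tables were not used here.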

Additional observations from a re-analysis of the deposited data

How the results depend on the processing

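With the isolation as a replicate block, loci called became 107 for BMP4, 25 for BMP6 and 114 for the mean, and members called 2, 1 and 3, against 4, 2 and 12 loci and 0 members without it. Voom with the block called 1066, 85, 377 and 69 loci (BMP4, BMP6, mean, difference) and 5, 2, 5 and 1 members. Without a filter on low values the loci were 8, 12, 7 and 1, and for the vehicles 2490 with 0 members; voom without the block called 1 member between the vehicles. With only the libraries of its own experiment, BMP4 gave 0 and BMP6 12 loci, and a pseudocount of 2 gave 0 loci for BMP6.

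Leaving out 1 library, or 1 isolation with the block, gave 0 to 145 loci and 0 to 2 members for BMP4, 0 to 49 and 0 to 1 for BMP6, 0 to 192 and 0 to 3 for the mean, 0 to 16 loci for the difference, and 5 to 5551 loci and 0 to 3 members between the vehicles.

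The sign of the Runx2 difference turned to -0.011 with median centring, -0.031 with voom and -0.040 with voom and block, and that of Sox6 to 0.00018 with voom and block. Leaving out 1 library or isolation also turned signs, within these ranges: with BMP4, Sox6 -0.79 to 1.02, Runx1 -0.13 to 0.17 and Runx2 -0.28 to 0.40; with BMP6, Sox9 -0.087 to 0.36, Sox6 -0.14 to 0.23 and Runx1 -0.043 to 0.21; for the mean, Sox6 -0.37 to 0.53, Runx1 -0.026 to 0.13 and Runx2 -0.10 to 0.24; for the difference, Sox6 -0.98 to 0.84, Runx1 -0.091 to 0.21, Runx2 -0.32 to 0.36 and Scx -0.48 to 0.071; between the vehicles, Foxc2 -0.24 to 0.58. The causes were not tested. Depth limits Sox5, Foxc1 and Foxc2, with as few as 22, 41 and 15 estimated reads in a library.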
